A study of Mus musculus with 18 samples.

Results

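The genes described here are 40 genes of dividing mouse stem cells, 24 that act in mitosis or the entry into it and 16 that act in DNA synthesis during S phase. They were taken by symbol from the deposited table of 25239 gene symbols. All 40 were present, and all 40 were among the 17545 genes that passed a filter on low counts. The lowest deposited count of any of them in any library was 315, for Cdc45. The mitosis genes were Mki67, Top2a, Cdk1, Ccna2, Ccnb1, Ccnb2, Bub1, Bub1b, Mad2l1, Aurka, Aurkb, Plk1, Cdc20, Cenpa, Cenpe, Cenpf, Kif11, Kif20a, Kif23, Tpx2, Birc5, Nusap1, Ube2c and Cdca8. The S phase genes were Mcm2, Mcm3, Mcm4, Mcm5, Mcm6, Mcm7, Pcna, Rrm1, Rrm2, Tyms, Cdc6, Cdc45, Gins2, Fen1, Chaf1b and Slbp.

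RNA was sequenced from 18 libraries, 3 in each of 6 groups, along a change of mouse pluripotent cells from the primed to the naive state. The D3, D5 and D8 groups, labelled transient, were taken on days 3, 5 and 8, the rES group is labelled naive, the ESC group is labelled mESC, and the EpiSC group, labelled primed, is day 0. The labels give no genotype, strain, culture medium or number of clones, and do not say that the 3 libraries of a group came from separate cultures, so each p-value measures only the spread between these libraries. Deposited counts summed to between 58.4 and 70.8 megacounts (M) in 17 libraries and to 101.6 M in D8 replicate 2. Levels are CPM, the counts of a gene per M counts of its library, scaled between libraries by the trimmed mean of M-values (TMM). A gene was called higher or lower where the adjusted p of edgeR's quasi-likelihood test, over all genes tested, was under 0.05.

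A dividing cell copies its DNA in S phase and separates the copies in mitosis, and each phase draws on its own set of proteins. MCM helicases, loaded by Cdc6, open the DNA for replication, ribonucleotide reductase and thymidylate synthase make its building blocks, and cyclin B with Cdk1, Plk1 and the Aurora kinases drive the cell into and through mitosis. Transcripts of both sets rise and fall within each cycle, and both sets are abundant in cultured pluripotent cells, which cycle quickly with a short G1 phase. E2F factors are known to act on many S phase promoters. The MuvB complexes, with MYBL2 and FOXM1 or as the repressive DREAM complex, are known to act on many mitosis promoters. In bulk RNA, fewer cycling cells and less RNA of these genes per cell cannot be told apart.

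Both sets were lower at D3, D5 and D8 than in EpiSC, were lowest at D8, and were high again in rES. The mitosis genes together stood at 7046 ± 157 CPM in EpiSC, 4083 ± 205 at D3, 2907 ± 16.6 at D5, 1514 ± 296 at D8, 4754 ± 67.2 in rES and 5083 ± 78.4 in ESC (SD, n = 3 each). The S phase genes together stood at 4759 ± 105 CPM in EpiSC, 3233 ± 54 at D3, 2034 ± 44.3 at D5, 1505 ± 278 at D8, 4972 ± 89 in rES and 5434 ± 97.2 in ESC. For both sets, every D8 library lay below every library of the other 5 groups. The sets differed at the end of the series: the mitosis sum was 67.5% of its EpiSC mean in rES and 72.1% in ESC, and the S phase sum was 104% of its EpiSC mean in rES and 114% in ESC. These sums are descriptions with no test, and a gene with a higher count weighs more in them.

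**Figure D1:**
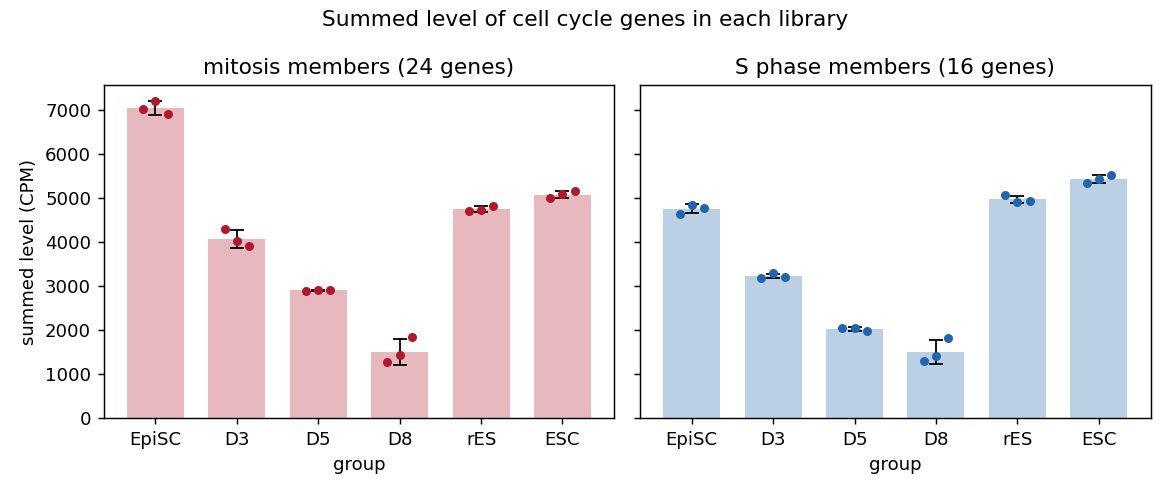
Summed level in CPM of the 24 mitosis genes (left) and the 16 S phase genes (right) in each group. Points are libraries, bars are group means and error bars are the SD of 3 libraries. Both sums are lowest at D8, and the S phase sum in rES and ESC is at or above that of EpiSC while the mitosis sum is below it.

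Mitosis genes followed their sum more closely than S phase genes did. The D8 mean was below all other group means for 38 of the 40 genes, against 15.8% of all genes tested, and the exceptions were Mcm2 and Mcm7, whose lowest mean was at D5. All 3 D8 libraries lay below all 15 others for 29 of the 40 genes, 22 of mitosis and 7 of S phase, against 6.97% of all genes. At each of D3, D5 and D8 the group mean was below that of the group before it for 22 of 24 mitosis genes and 9 of 16 S phase genes, against 11.5% of all genes. EpiSC had the highest mean for 20 mitosis and 6 S phase genes. The highest mean was in ESC for 9 genes, among them Mcm2, Mcm3, Mcm5 and Mcm6, in rES for Mcm4, Mcm7, Tyms and Fen1, and at D5 for Kif23. All 40 genes differed somewhere among the 6 groups, as did 93.2% of all genes tested.

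**Figure D2:**
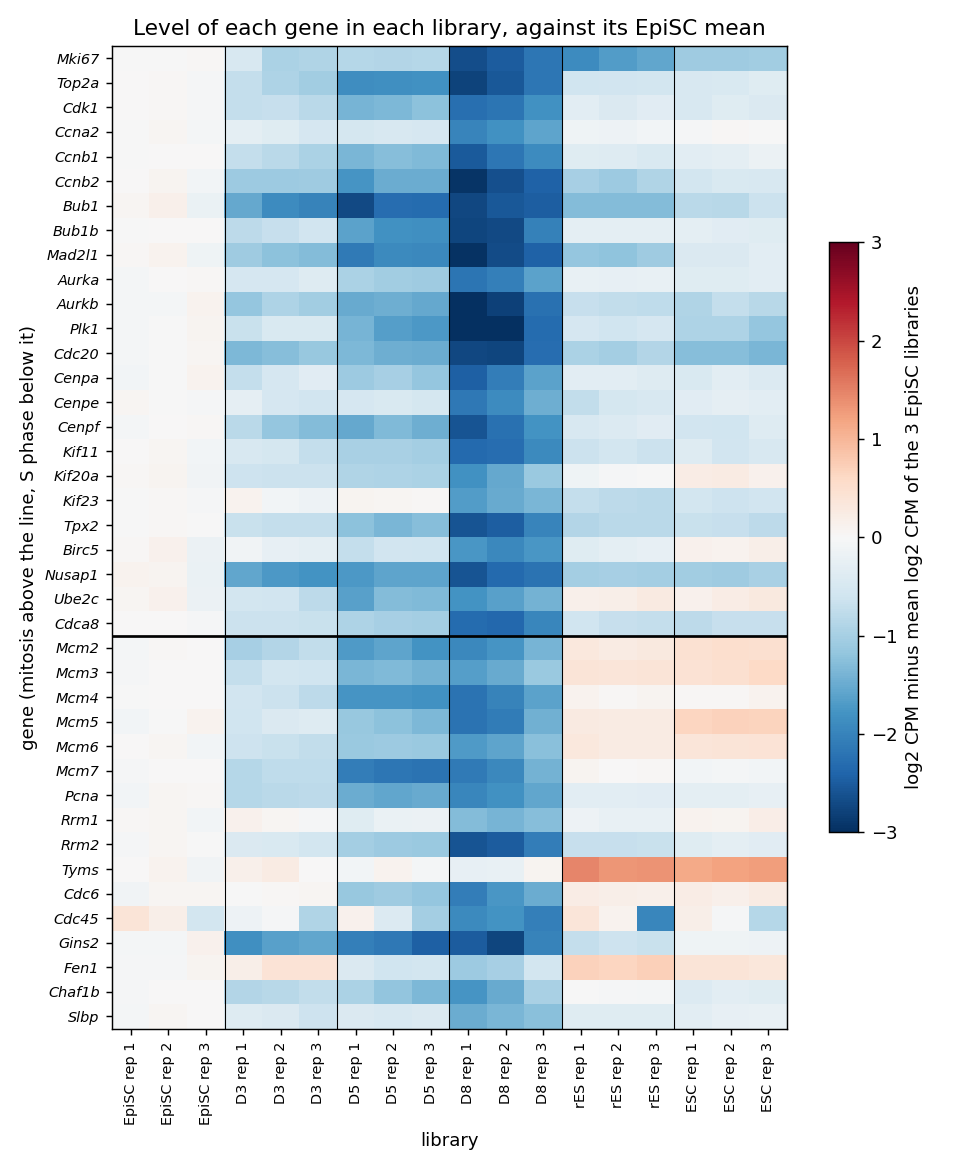
Level of each of the 40 genes (rows) in each of the 18 libraries (columns), as log2 CPM minus the mean log2 CPM of the 3 EpiSC libraries; blue is below and red above the EpiSC mean, with the colour scale ending at 3 either way. The D8 columns are the bluest for most rows, and the rES and ESC columns are red for Tyms, Fen1, Mcm2, Mcm3, Mcm5 and Mcm6.

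Per kilobase of exon, Cdc20 had the highest mean level in EpiSC at 263 CPM per kb, followed by Rrm2 at 188, Pcna at 174 and Plk1 at 158. The length is that of all annotated exons of a gene together, 1868 bases for Cdc20 and 11012 for Rrm1, not that of 1 transcript. Ranks between genes on this scale therefore depend on the annotation. At D8 the highest was Pcna at 51.0 CPM per kb, with Mcm3 at 45.0 and Cdc20 at 44.4. In ESC the MCM genes Mcm5 and Mcm3 led, at 169.8 and 168 CPM per kb. Cdc45 was the lowest of the 40 in every group but D5, where Gins2 was lowest at 3.47 CPM per kb; Cdc45 stood at 1.56 CPM per kb at D8, against 6.12 in EpiSC.

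Letters known from promoters of cell cycle genes are shown for 6 of the 40 genes, chosen among those with matches: Cdk1, Cdc20, Ube2c and Kif11 of mitosis and Mcm6 and Mcm5 of S phase. Each line gives the 160 bases just before the gene's RefSeq start on GRCm38.p6, 5′ to 3′ on the gene's own strand. Capitals mark TTTGAA (the core of the cell cycle genes homology region, CHR), CCAAT (known as the NF-Y box) and the E2F letters TTTCCCGC, TTTGGCGC, TTTCGCGC and TTTGCCGC, each on either strand, so that TTCAAA and ATTGG are the same letters read from the other strand. An E2F match on one strand overlaps an E2F match on the other in Mcm6 and in Mcm5.
Cdk1 (chr10:69352913-69353072, minus strand): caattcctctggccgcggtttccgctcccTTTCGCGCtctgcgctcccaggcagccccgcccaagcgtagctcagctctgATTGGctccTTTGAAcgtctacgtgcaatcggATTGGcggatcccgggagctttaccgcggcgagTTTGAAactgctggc
Cdc20 (chr4:118437344-118437503, minus strand): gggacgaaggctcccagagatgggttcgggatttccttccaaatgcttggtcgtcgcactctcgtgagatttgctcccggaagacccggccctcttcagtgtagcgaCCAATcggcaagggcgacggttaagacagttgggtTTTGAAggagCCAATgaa
Ube2c (chr2:164769769-164769928, plus strand): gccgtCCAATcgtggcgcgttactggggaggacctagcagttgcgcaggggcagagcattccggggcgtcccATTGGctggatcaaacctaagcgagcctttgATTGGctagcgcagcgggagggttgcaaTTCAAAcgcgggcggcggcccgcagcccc
Kif11 (chr19:37376222-37376381, plus strand): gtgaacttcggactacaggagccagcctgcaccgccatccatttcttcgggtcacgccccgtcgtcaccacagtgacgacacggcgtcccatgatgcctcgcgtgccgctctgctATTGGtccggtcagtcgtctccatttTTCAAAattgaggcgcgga
Mcm6 (chr1:128359706-128359865, minus strand): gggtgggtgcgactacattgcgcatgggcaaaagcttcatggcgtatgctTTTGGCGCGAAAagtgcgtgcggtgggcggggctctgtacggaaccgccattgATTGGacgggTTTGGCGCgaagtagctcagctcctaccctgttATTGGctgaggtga
Mcm5 (chr8:75109349-75109508, plus strand): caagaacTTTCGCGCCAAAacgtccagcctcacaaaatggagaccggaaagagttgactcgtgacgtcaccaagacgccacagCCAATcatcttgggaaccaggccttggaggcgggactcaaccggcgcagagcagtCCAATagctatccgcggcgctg
Windows from 250 bases before to 50 bases after the start were given for 34 of the 40 genes, 20 of mitosis and 14 of S phase. For 26 of the 34, the bases 11 to 30 after that start lay in a GENCODE transcript of the gene. TTTGAA was present in 14 of 20 mitosis windows (70%) and 3 of 14 S phase windows (21.4%), against 17.8% of the 18651 symbols of the table with a window. CCAAT was present in 17 mitosis windows (85%) and 10 S phase windows (71.4%), against 42.2% of all. The E2F letters were present in 1 mitosis window (5%), that of Cdk1, and in 5 S phase windows (35.7%), against 3.22% of all. TTTGAA and CCAAT occurred together in 14 mitosis windows (70%) and 2 S phase windows (14.3%), against 8.27% of all. These matches are descriptions of letters, not binding sites, and binding was not measured here.

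**Figure D3:**
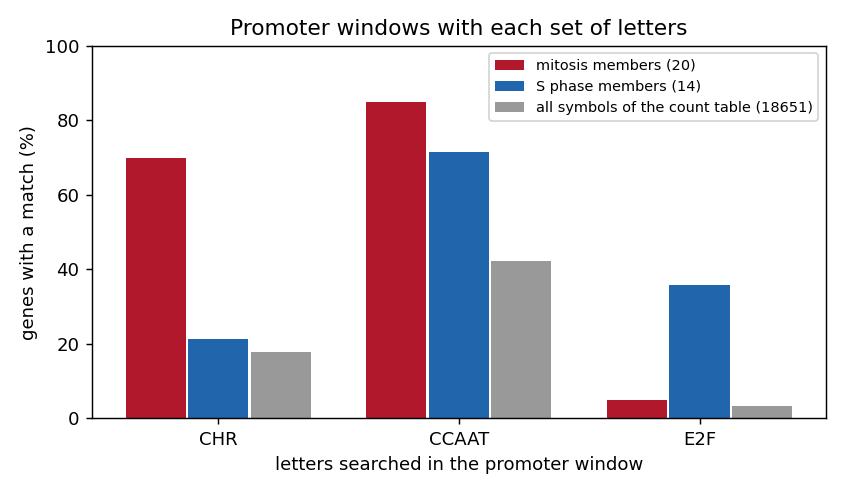
Share of promoter windows (250 bases before to 50 after the RefSeq start) that hold the CHR letters, CCAAT or the E2F letters, in percent, for mitosis genes, S phase genes and all symbols of the count table. Mitosis windows have the tallest bar for CHR at 70% and S phase windows the tallest for E2F at 35.7%.

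At D3 most genes of both sets were already lower than in EpiSC. Of the mitosis genes 23 of 24 fell and none rose, and of the S phase genes 11 of 16 fell and 1 rose, against 30.2% of all genes called lower and 34.1% called higher. The median log2 difference was -0.69 for mitosis and -0.55 for S phase genes, against 0.00 for all genes. The 5 comparisons with EpiSC share its 3 libraries, so their counts are not independent of each other.

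Bub1 and Nusap1 fell most among mitosis genes at D3. Bub1, a kinase of the spindle checkpoint, stood at 93.7, 73.4 and 67.3 CPM in the D3 libraries, against 282, 301 and 236 CPM in EpiSC, a log2 difference of -1.81 ± 0.13 (SE, adjusted p = 8.02e-10). Nusap1, which binds spindle microtubules, stood at 72.1, 64.7 and 61.0 CPM at D3, against 230, 224 and 187 CPM in EpiSC, a log2 difference of -1.70 ± 0.10 (adjusted p = 3.75e-11). For both genes all D3 libraries lay far below all EpiSC libraries. Cdc20, the activator of the anaphase-promoting complex, was at 42% of its EpiSC mean at D3. Mki67 and Ccnb1 fell by 0.76 and 0.82 on the log2 scale. Plk1 was at 69.4% of its EpiSC mean, with a log2 difference of -0.53 ± 0.17 (adjusted p = 0.0125), a call that was lost without D3 replicate 1 (adjusted p = 0.0512).

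Among S phase genes at D3, Gins2, a subunit of the GINS complex of the replicative helicase, fell most. It stood at 18.4, 21.2 and 22.2 CPM at D3, against 63.2, 62.8 and 71.3 CPM in EpiSC, a log2 difference of -1.68 ± 0.15 (adjusted p = 1.22e-08). Exons of Gins2 share 67.3% of their bases with Gse1 on the opposite strand, and the strand setting of the counting is not given in the sources used here. Mcm2 and Pcna, the sliding clamp of DNA polymerase, fell by 0.87 and 0.82 on the log2 scale, and Rrm2 by 0.48. Fen1, a nuclease of lagging-strand synthesis, was the 1 gene that rose, at 109, 128 and 129 CPM at D3 against 94.3, 94.4 and 102.5 CPM in EpiSC (0.33 ± 0.11 as a log2 difference, adjusted p = 0.0121). The 2 groups did not overlap, but 78.8% of the exon bases of Fen1 lie under Gm10143 on the opposite strand. Rrm1, Tyms, Cdc6 and Cdc45 were not called at D3, with log2 differences of 0.05, 0.13, 0.02 and -0.37.

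At D5, 23 mitosis and 14 S phase genes were lower than in EpiSC and none was higher, against 34.3% of all genes called lower and 37.7% called higher. The median log2 difference was -1.32 for mitosis genes and -1.14 for S phase genes, against 0.02 for all genes. The mitosis genes that fell most were Bub1 (-2.43 ± 0.13, adjusted p = 9.14e-12), Mad2l1, another spindle checkpoint gene (-1.99 ± 0.11, adjusted p = 1.77e-11), and Top2a, which untangles copied DNA (-1.84 ± 0.11, adjusted p = 5.35e-11). Among S phase genes Gins2 (-2.21), Mcm7 (-2.16) and Mcm4 (-1.78) fell most. Mki67, Ccnb1 and Plk1 fell by 0.87, 1.33 and 1.59 on the log2 scale, and Mcm2, Pcna and Rrm2 by 1.69, 1.52 and 1.08. The 3 genes not called were Kif23, Tyms and Cdc45, with log2 differences of 0.06, -0.01 and -0.41.

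The step between D3 and D5 was a fall of both sets. At D5, 18 mitosis and 13 S phase genes were lower than at D3 and none was higher, against 29.6% of all genes called lower and 29.9% called higher. Median log2 differences in this step were -0.48 for mitosis and -0.65 for S phase genes, against 0.00 for all genes. The largest falls were of the S phase genes Mcm7 (-1.36 ± 0.12, adjusted p = 1.86e-08), Cdc6 (-1.14 ± 0.10, adjusted p = 3.15e-08) and Mcm4 (-1.12 ± 0.10, adjusted p = 4.13e-08). Mcm7, a helicase subunit, stood at 133, 125 and 120.4 CPM at D5, against 311, 331 and 330.4 CPM at D3, with no overlap. Of the mitosis genes, Bub1b, Plk1 and Top2a fell most, by 1.06, 1.06 and 0.95 on the log2 scale. Ccnb1 fell by 0.51, Mcm2 by 0.82, Pcna by 0.70 and Rrm2 by 0.60. Mki67, Ccna2, Cdc20, Cenpe, Kif23 and Nusap1 were not called in this step, with log2 differences between -0.18 and 0.10.

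The step between D5 and D8 fell mainly on mitosis genes. At D8, 22 of 24 mitosis genes and 9 of 16 S phase genes were lower than at D5, and 1 S phase gene was higher, against 22.0% of all genes called lower and 25.1% called higher. In this step the median log2 difference was -0.98 for mitosis genes and -0.30 for S phase genes, against 0.05 for all genes. Kif23, a kinesin needed for cytokinesis, fell most of the 40, with 42.9, 48.2 and 52.8 CPM at D8 against 146, 143 and 141 CPM at D5 (log2 difference -1.58 ± 0.08, adjusted p = 5.01e-11). Mki67, the gene of the proliferation antigen Ki-67, stood at 67.6, 76.0 and 95.7 CPM at D8, against 236, 232 and 236 CPM at D5 (-1.56 ± 0.12, adjusted p = 1.60e-08). Neither gene had overlapping libraries. Cenpe, Plk1 and Ccnb1 fell by 1.31, 1.26 and 0.85 on the log2 scale.

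S phase genes parted in that step. Cdc45 (-1.57 ± 0.44, adjusted p = 0.00742), Rrm2 (-1.30 ± 0.09, adjusted p = 5.35e-09) and Rrm1 (-1.08 ± 0.07, adjusted p = 1.00e-09) fell most. Rrm2, the small subunit of ribonucleotide reductase, stood at 85.9, 91.8 and 123 CPM at D8, against 257, 243 and 239 CPM at D5. Pcna fell by 0.26 on the log2 scale, a call lost with the 2 groups fitted alone (adjusted p = 0.0831) and without D8 replicate 1 (adjusted p = 0.0661). Of the 6 helicase genes, Mcm5 and Mcm6 fell by 0.64 and 0.39 on the log2 scale, and Mcm2, Mcm3 and Mcm4 were not called, with log2 differences of 0.00, -0.03 and -0.13. Mcm7 was called higher, with 128, 147 and 211 CPM at D8 against 133, 125 and 120.4 CPM at D5 (0.36 ± 0.12, adjusted p = 0.0173). The Mcm7 libraries overlapped, and the call was lost without D8 replicate 3 (0.12, adjusted p = 0.120), without D5 replicate 3 (0.32, adjusted p = 0.0638) and with the 2 groups fitted alone (0.36, adjusted p = 0.100). Without D8 replicate 3, 13 rather than 9 S phase genes were lower at D8, and the S phase median was -0.50, and without D8 replicate 1 it was -0.20.

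At D8 all 24 mitosis genes and 15 of 16 S phase genes were lower than in EpiSC and none was higher, against 34.5% of all genes called lower and 42.4% called higher. At least 2-fold falls were seen for 38 of the 40 genes, against 20.6% of all genes. The median log2 difference was -2.19 for mitosis genes and -1.72 for S phase genes, against 0.19 for all genes.

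Plk1, the kinase that drives mitotic entry and spindle assembly, fell most. It stood at 38.03, 36.5 and 70.3 CPM in the D8 libraries, against 332, 342 and 369 CPM in EpiSC, a log2 difference of -2.85 ± 0.19 (adjusted p = 1.06e-10). Aurkb, the kinase of the chromosomal passenger complex, stood at 16.4, 20.5 and 30.1 CPM at D8, against 136, 138 and 154 CPM in EpiSC (-2.68 ± 0.15, adjusted p = 1.30e-11). Other members of that complex, Birc5 and Cdca8, fell by 1.81 and 2.20 on the log2 scale. Mad2l1 stood at 24.5, 29.8 and 35.9 CPM at D8, against 195, 205 and 176 CPM in EpiSC (-2.67 ± 0.12, adjusted p = 3.81e-13). In these 5 genes the highest D8 library was below the lowest EpiSC library.

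The cyclins of mitosis fell unequally at D8. Ccnb2 and Ccnb1, both B-type cyclins that pair with Cdk1, were at 15.9% and 22.1% of their EpiSC means, and Ccna2, cyclin A, at 29.0%. Cdk1 itself was at 23.7% and Mki67 at 18.6%. Cenpa, the histone that marks centromeres, was at 24.9%, and the kinetochore genes Cenpf and Cenpe were at 22.1% and 28.7%. Among spindle motors and their partners, Tpx2 was at 20.0%, Kif11 at 22.3%, Kif23 at 34.9% and Kif20a at 36.5%. Kif20a shares 29.3% of its exon bases with Cdc23 and Ube2c, at 32.7%, shares 22.8% with Tnnc2, both on opposite strands. Pseudogenes are annotated for Ccnb1, Ccnb2, Pcna and Tyms, so reads may be split between copies.

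Among S phase genes at D8, Gins2 and Rrm2 fell most. Gins2 stood at 11.7, 9.70 and 16.4 CPM at D8, against 63.2, 62.8 and 71.3 CPM in EpiSC (-2.39 ± 0.15, adjusted p = 6.20e-11). Rrm2 stood at 85.9, 91.8 and 123 CPM at D8, against 509, 539.6 and 515 CPM in EpiSC (-2.38 ± 0.10, adjusted p = 1.77e-13). The large subunit gene Rrm1 was at 40.1% of its EpiSC mean where Rrm2 was at 19.2%. The 6 MCM genes were at 26.5% to 37.8% of their EpiSC means, and Pcna was at 29.2%. Tyms, the gene of thymidylate synthase, was not called, with 39.2, 39.96 and 49.2 CPM at D8 against 46.6, 49.8 and 42.9 CPM in EpiSC (-0.12 ± 0.09, adjusted p = 0.255), and its libraries overlapped.

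**Figure D4:**
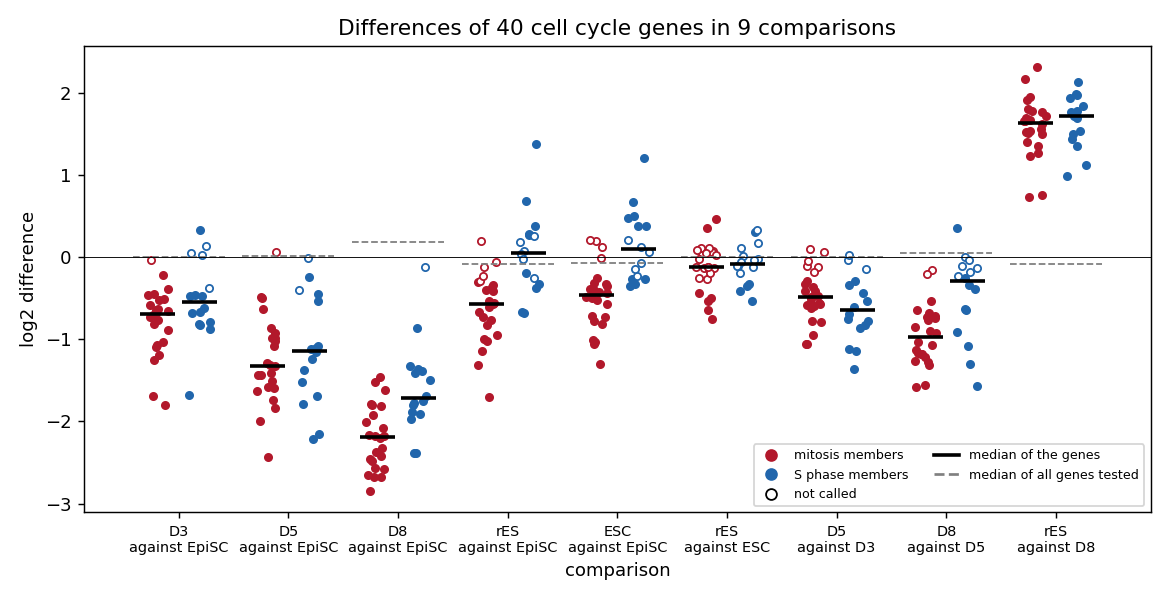
Log2 difference of each of the 40 genes in 9 comparisons, mitosis genes in red and S phase genes in blue; filled points were called, open points were not, black bars are the medians of each set and dashed lines the median of all genes tested. The medians of both sets lie below the dashed line at D3, D5 and D8 against EpiSC, 4 S phase genes at D3 and Kif23 at D5 lie above it, the S phase set spreads on both sides of it in rES and ESC, and all 40 genes are above it in rES against D8.

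The 3 D8 libraries were not alike. D8 replicate 3 had the highest level of the 3 for 38 of the 40 genes, against 38.7% of all genes. The mitosis genes summed to 1268, 1431 and 1843 CPM in D8 replicates 1, 2 and 3, and the S phase genes to 1291, 1404 and 1820.1 CPM. Naive markers were also highest in D8 replicate 3: across the same libraries Zfp42 stood at 40.3, 56.0 and 87.3 CPM and Esrrb at 133, 167 and 261 CPM. The epithelial and trophoblast keratin gene Krt7 was lowest in D8 replicate 3, at 469, 404 and 336 CPM across them. Fibroblast markers summed to 1045, 1742 and 1241 CPM in D8 replicates 1, 2 and 3 and were highest in replicate 2. The part of these cell mixtures in the spread was not tested. Without D8 replicate 3, 40 of the 40 genes were lower at D8 than in EpiSC, and the medians were -2.37 for mitosis and -1.87 for S phase genes.

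Most markers of other cell types were higher at D3, D5 and D8 than in EpiSC. Of all genes tested, 34.1%, 37.7% and 42.4% were called higher than in EpiSC at D3, D5 and D8. All 8 trophoblast markers rose at D3, D5 and D8 and summed to 1316 to 1438 CPM at D3, 828 to 891 at D5 and 654 to 804 at D8, against 4.29 to 9.22 CPM in EpiSC, where Cdx2 had no counts. Fibroblast markers rose for 9, 8 and 8 of 10 genes at D3, D5 and D8. They summed to 575 to 736, 831 to 919.8 and 1045 to 1742 CPM, against 40.5 to 57.2 CPM in EpiSC. At D5 and at D8, 1 fibroblast marker was lower than in EpiSC. Primitive endoderm markers rose for 7 of 8 at each time and summed to 71.6 to 81.5, 155 to 169 and 292 to 366 CPM, against 13.0 to 14.7 CPM in EpiSC. Of 7 giant cell trophoblast markers 3 could be tested, 1 rose at D3 and at D5 and all 3 at D8, and Prl3d1 had no counts in any library. The 1 that rose at D3 and D5 was Plac1, the only gene of that list with counts in EpiSC, rES and ESC. Some of these markers were also above EpiSC in rES and ESC. Trophoblast markers summed to 170 to 175 CPM in rES and 84.5 to 92.7 CPM in ESC. Fibroblast markers summed to 28.7 to 32.4 CPM in rES and 148.5 to 190 CPM in ESC. Primitive endoderm markers summed to 92.8 to 99.5 CPM in rES and 61.6 to 65.9 CPM in ESC, against 71.6 to 81.5 CPM at D3. The part of other cell types in the fall of the 40 genes was not tested.

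Pluripotency markers followed the labels at both ends of the series. Naive markers summed to 4399 to 4467 CPM in rES and 4464 to 4511 CPM in ESC, against 58.9 to 65.5 CPM in EpiSC, where Zfp42 had no counts. They summed to 306 to 320.2 CPM at D3, 281 to 366 at D5 and 964 to 1834 at D8. Of the 8 naive markers, 7 were called higher and 1 lower than in EpiSC at D3 and at D5, and all 8 were higher at D8. Nanog stood at 4.76, 4.28 and 3.64 CPM in the D3 libraries, against 41.7, 47.1 and 33.8 CPM in EpiSC. Primed markers summed to 228 to 241 CPM in rES and 152 to 159 CPM in ESC, against 1946 to 2126 CPM in EpiSC. They summed to 197 to 220 CPM at D3, 66.5 to 72.0 at D5 and 67.0 to 98.8 at D8. Shared pluripotency markers summed to 427 to 479 CPM at D3, 64.6 to 79.5 at D5 and 268 to 565 at D8, against 2000.1 to 2231 CPM in EpiSC. In rES they summed to 1266 to 1302 CPM and in ESC to 914 to 951 CPM, below EpiSC and above D3, D5 and D8.

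All 40 genes were higher in rES than at D8, against 32.7% of all genes called higher and 38.4% called lower. At least 2-fold rises were seen for 37 of the 40, against 17.6% of all genes. Their median log2 difference was 1.64 for mitosis genes and 1.72 for S phase genes, against -0.09 for all genes. Plk1 (2.31 ± 0.18, adjusted p = 2.02e-09), Bub1b (2.17 ± 0.14, adjusted p = 1.12e-10) and Aurkb (1.95 ± 0.15, adjusted p = 1.09e-09) rose most of the mitosis genes. Mcm5 (2.14 ± 0.14, adjusted p = 1.63e-10), Mcm4 (1.99 ± 0.11, adjusted p = 9.11e-12) and Mcm2 (1.97 ± 0.10, adjusted p = 8.24e-12) rose most of the S phase genes. Ccnb1, Rrm2 and Pcna rose with log2 differences of 1.78, 1.70 and 1.44.

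The smallest rises in rES over D8 were of Mki67, Kif23 and Slbp, at 0.73, 0.75 and 0.99. Mcm5 stood at 517, 502 and 508 CPM in rES, against 91.2, 100.4 and 156 CPM at D8. Mki67 stood at 117, 135 and 145 CPM in rES, against 67.6, 76.0 and 95.7 CPM at D8. The rES libraries all lay above the D8 libraries for 39 of the 40 genes, against 36.3% of all genes, with Cdc45 the exception.

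In rES the mitosis genes remained below EpiSC while the S phase genes were on both sides of it. Of the mitosis genes 19 of 24 were lower and none was higher, and of the 16 S phase genes 5 were lower and 5 higher. Of all genes, 37.5% were called lower and 31.9% higher, shares near those of the S phase genes. The median log2 difference was -0.57 for mitosis and 0.06 for S phase genes, against -0.09 for all genes. With relative log expression (RLE) scaling these medians were -0.42, 0.20 and 0.01, and in a fit of the 2 groups alone -0.40, 0.22 and 0.04. The count of genes higher in rES, 5 in all, was 8 with RLE scaling and 11 with the 2 groups fitted alone, which included 1 mitosis gene in each case. Of all 17545 genes, 5590 were higher with TMM scaling and 6327 with RLE scaling, and the fit of 2 groups alone gave 6377 of 15657.

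Mki67 stood lowest against EpiSC of the genes in rES. It had 117, 135 and 145 CPM in rES, against 423, 425 and 439 CPM in EpiSC (-1.70 ± 0.12, adjusted p = 8.94e-10), so that rES held 30.9% of its EpiSC mean. Bub1 stood at 111, 109.8 and 109.9 CPM in rES, against 282, 301 and 236 CPM in EpiSC (-1.31 ± 0.13, adjusted p = 4.04e-08). Mad2l1 was at 45.2% of its EpiSC mean (-1.15 ± 0.11, adjusted p = 3.67e-08). No rES library of these 3 genes reached an EpiSC library.

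Ccnb1 and Plk1 were also below EpiSC, by less than Mki67, Bub1 and Mad2l1. Ccnb1 stood at 419, 413 and 392 CPM in rES, against 528, 544 and 538 CPM in EpiSC (-0.40 ± 0.11, adjusted p = 0.00279). Plk1 stood at 245, 230.1 and 244 CPM in rES, against 332, 342 and 369 CPM in EpiSC (-0.54 ± 0.17, adjusted p = 0.0106). Ccna2, Bub1b, Aurka, Kif20a and Ube2c were not called, with log2 differences of -0.12, -0.29, -0.23, -0.06 and 0.19.

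Among S phase genes, the 5 that rose in rES were Tyms, Fen1, Mcm3, Mcm2 and Mcm6. Tyms stood at 127, 116 and 118 CPM in rES, against 46.6, 49.8 and 42.9 CPM in EpiSC (1.38 ± 0.09, adjusted p = 3.35e-10). Fen1 stood at 156, 152 and 158 CPM in rES, against 94.3, 94.4 and 102.5 CPM in EpiSC (0.68 ± 0.11, adjusted p = 2.03e-05). Both genes had no overlap between groups. Mcm3, Mcm2 and Mcm6 rose by smaller amounts, with log2 differences of 0.38, 0.29 and 0.27, and the Mcm2 call was lost without EpiSC replicate 1 (adjusted p = 0.0588) or rES replicate 1 (adjusted p = 0.0525).

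The 5 S phase genes that were lower in rES were Rrm2, Gins2, Slbp, Pcna and Rrm1. Rrm2 stood at 323, 324 and 328 CPM in rES, against 509, 539.6 and 515 CPM in EpiSC (-0.68 ± 0.09, adjusted p = 3.43e-06). Gins2 fell by 0.67 on the log2 scale. Pcna fell by 0.33 on the log2 scale and Slbp, which binds the stem loop of histone messages, by 0.37. Of the genes of nucleotide synthesis, Tyms was therefore above EpiSC and Rrm1 and Rrm2 were below it.

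ESC too had fewer transcripts of most mitosis genes than EpiSC, with S phase genes on both sides. Of the mitosis genes 20 of 24 were lower and none was higher, and of the 16 S phase genes 4 were lower and 6 higher. Of all genes, 36.1% were called lower and 31.2% higher, shares near those of the S phase genes. The median log2 difference was -0.46 for mitosis and 0.09 for S phase genes, against -0.07 for all genes. With RLE scaling these medians were -0.35, 0.21 and 0.00, and in a fit of the 2 groups alone -0.33, 0.23 and 0.01. The count of genes higher in ESC, 6 in all, was 11 with RLE scaling, of which 3 were mitosis genes. The S phase genes that were lower numbered 1 with RLE scaling. Of all 17545 genes, 6058 were called higher and 5678 lower with RLE scaling, against 5472 and 6330 with TMM scaling.

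Cdc20 was the mitosis gene farthest below EpiSC in ESC. It stood at 204, 204 and 190.1 CPM in ESC, against 473, 488 and 515 CPM in EpiSC (-1.30 ± 0.10, adjusted p = 1.96e-09). Mki67 (-1.06 ± 0.12, adjusted p = 4.63e-07), Nusap1 (-1.04 ± 0.09, adjusted p = 2.04e-08) and Plk1 (-1.004 ± 0.17, adjusted p = 5.86e-05) followed. Ccnb1 had a log2 difference of -0.26 (adjusted p = 0.0377), a call lost with RLE scaling (adjusted p = 0.216), total counts (adjusted p = 0.0908), DESeq2 (adjusted p = 0.213) and 5 of 6 left-out libraries.

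The S phase genes that rose in ESC were Tyms, Mcm5, Mcm3, Mcm2, Mcm6 and Fen1. Tyms stood at 103, 107 and 111 CPM in ESC, against 46.6, 49.8 and 42.9 CPM in EpiSC (1.20 ± 0.09, adjusted p = 2.28e-09). Mcm5 stood at 668, 684 and 682 CPM in ESC, against 403, 421 and 457 CPM in EpiSC (0.67 ± 0.13, adjusted p = 0.000274). Mcm2 stood at 783, 807 and 801 CPM in ESC, against 553, 587 and 577 CPM in EpiSC (0.48 ± 0.10, adjusted p = 0.000409). All ESC libraries of these 3 genes were above all EpiSC libraries. Rrm2, Chaf1b, a subunit of a histone chaperone, Pcna and Slbp were lower in ESC, with log2 differences of -0.36 to -0.27, and the Pcna call was lost with RLE scaling (adjusted p = 0.0634).

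**Figure D5:**
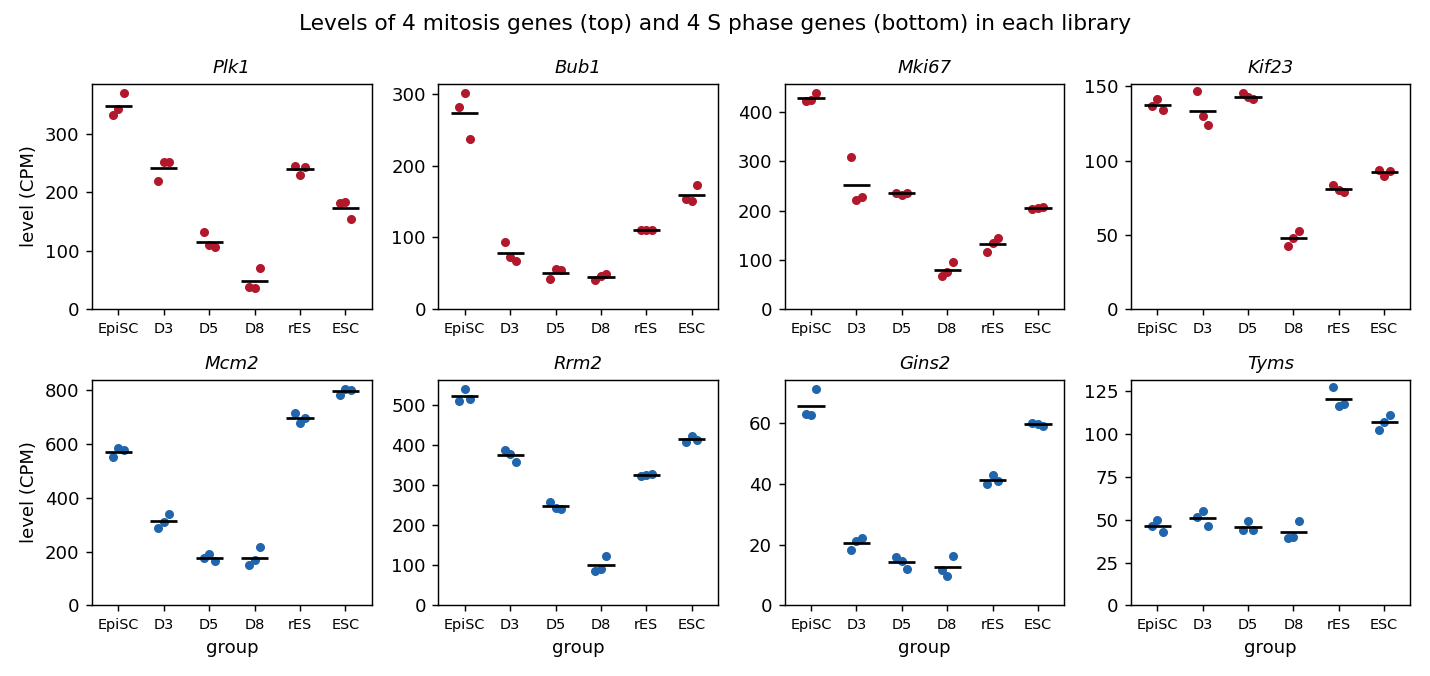
Level in CPM of 4 mitosis genes (top row) and 4 S phase genes (bottom row) in each library, by group; points are libraries and black bars group means. Plk1, Bub1 and Rrm2 are lowest at D8, Kif23 stays level until D8, Mki67 is lower in rES than in ESC, and Tyms is high in rES and ESC.

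Between rES and ESC 9 of the 40 genes were lower in rES and 3 higher, against 17.9% of all genes called lower and 15.6% called higher. None of the 12 differed 2-fold, against 4.16% of all genes called at least 2-fold lower and 4.42% at least 2-fold higher. The medians were -0.12 for mitosis and -0.08 for S phase genes, against 0.00 for all genes. Mad2l1 stood at 85.6, 83.2 and 91.2 CPM in rES, against 143, 141 and 154 CPM in ESC (-0.75 ± 0.11, adjusted p = 4.26e-05). Mki67 stood at 117, 135 and 145 CPM in rES, against 203, 206 and 209 CPM in ESC (-0.64 ± 0.12, adjusted p = 0.000562). Neither gene had overlapping libraries.

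The other genes lower in rES than in ESC were Bub1, Ccnb2, Birc5, Gins2, Mcm5, Rrm2 and Rrm1, with log2 differences between -0.53 and -0.32. The Mcm5 call was lost without any 1 of 5 of the 6 libraries. The genes higher in rES were Plk1, Cdc20 and Fen1. Cdc20 stood at 253, 244 and 266 CPM in rES, against 204, 204 and 190.1 CPM in ESC (0.35 ± 0.10, adjusted p = 0.0105). The calls of Plk1 (0.47 ± 0.17, adjusted p = 0.0455) and Fen1 (0.30 ± 0.11, adjusted p = 0.0361) were lost without any 1 of the 6 libraries, and 1 gene was then higher. With the 2 groups fitted alone, 18 genes were lower and 7 higher, against 3916 lower and 3932 higher of all 15167 genes tested in that fit. Ccnb1, Mcm2 and Pcna were not called, with log2 differences of -0.14, -0.19 and -0.06.

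The balance of the 2 sets changed along the series, a ratio within each library that does not depend on scaling between libraries. The summed CPM of S phase genes over that of mitosis genes was 0.662 to 0.691 in EpiSC, 0.742 to 0.821 at D3, 0.683 to 0.712 at D5, 0.982 to 1.02 at D8, 1.02 to 1.08 in rES and 1.07 in all 3 ESC libraries. The D8 libraries all lay above the EpiSC, D3 and D5 libraries, and D8 replicate 3 was at 0.988, within the range of the other D8 libraries. The difference in the ratio was not tested.

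Some genes departed from their set. Kif23 had means of 137 ± 3.65 CPM in EpiSC, 134 ± 11.7 at D3, 143 ± 2.13 at D5, 48.0 ± 4.93 at D8, 80.8 ± 2.35 in rES and 92.2 ± 2.02 in ESC, so that it was not called until D8. Tyms had means of 46.4 ± 3.47 CPM in EpiSC, 51.0 ± 4.43 at D3, 46.0 ± 3.10 at D5, 42.8 ± 5.58 at D8, 120.4 ± 5.93 in rES and 107 ± 4.18 in ESC. Cdc6, the loader of the MCM helicase, was level at D3, at 71.9 ± 1.41 CPM against 70.8 ± 4.47 CPM in EpiSC, and was at 46.0% of its EpiSC mean at D5. Rrm1 was at 104% of its EpiSC mean at D3, 84.5% at D5 and 40.1% at D8. Cdc45 varied widely within groups, at 26.4, 22.1 and 5.34 CPM in the 3 rES libraries, and only its D8 levels, 5.49, 5.92 and 4.95 CPM, were called different from EpiSC (-1.97 ± 0.45, adjusted p = 0.000655).

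Other genes of the pathway, taken from 4 lists that do not hold the 40, are given as counts of calls and medians. Of all genes tested, 34.5% were called lower and 42.4% higher at D8 than in EpiSC. Of 50 other S phase genes, 47 were lower and 2 higher at D8 than in EpiSC, with a median log2 difference of -1.57. Of 59 other genes of G2 and mitosis, 55 were lower and 1 higher, with a median of -1.92. In rES against D8, 48 of the 50 and 57 of the 59 were higher and 1 of each was lower, against 32.7% of all genes called higher and 38.4% called lower. In rES against EpiSC, 15 of the other S phase genes were higher and 22 lower, and 9 of the other mitosis genes were higher and 41 lower, with medians of -0.21 and -0.53, against 31.9% of all genes called higher and 37.5% called lower, shares near those of the other S phase genes. In ESC against EpiSC the counts were 21 higher and 18 lower for S phase and 8 higher and 39 lower for mitosis, against 31.2% of all genes called higher and 36.1% called lower.

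Among those other genes, Pimreg, a mitotic regulator, averaged 1.82 ± 0.23 CPM at D8 and 117 ± 7.24 CPM in EpiSC (-6.01 ± 0.14, adjusted p = 1.51e-16). Ncapd2, a condensin subunit, averaged 92.6 ± 18.2 CPM at D8 and 830.5 ± 9.56 CPM in EpiSC (-3.17 ± 0.10, adjusted p = 3.53e-15). Nasp, a histone chaperone, averaged 164 ± 31.8 CPM at D8 and 1045 ± 31.2 CPM in EpiSC (-2.67 ± 0.10, adjusted p = 6.13e-14). Cenpm, of the centromere, averaged 174 ± 3.90 CPM in rES and 20.9 ± 2.37 CPM in EpiSC (3.06 ± 0.23, adjusted p = 1.35e-09), against the direction of most of its list. Pimreg averaged 8.87 ± 0.14 CPM in rES and 20.6 ± 1.24 CPM in ESC, both below EpiSC.

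Of 18 transcription factors of cell cycle genes, 13 were lower and 3 higher at D8 than in EpiSC, against 34.5% of all genes called lower and 42.4% called higher. Foxm1, an activator of mitosis genes, averaged 26.5 ± 4.12 CPM at D8 and 122 ± 7.25 CPM in EpiSC (-2.21 ± 0.09, adjusted p = 1.60e-13). Rb1, the retinoblastoma gene that restrains E2F factors, averaged 147 ± 33.0 CPM at D8 and 16.4 ± 1.88 CPM in EpiSC (3.17 ± 0.18, adjusted p = 2.31e-11), and 78.5 ± 6.55 CPM at D5. E2f2, an activating E2F, averaged 2.22 ± 0.50 CPM at D8 and 8.33 ± 0.20 CPM in EpiSC.

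In rES against EpiSC, 6 of the 18 factors were higher and 8 lower, near the 31.9% of all genes called higher and 37.5% called lower. Mybl2, a partner of the MuvB complex, averaged 567 ± 9.10 CPM in rES and 121 ± 5.54 CPM in EpiSC (2.23 ± 0.15, adjusted p = 3.26e-10). E2f1 averaged 109 ± 3.27 CPM in rES and 36.7 ± 1.37 CPM in EpiSC (1.57 ± 0.11, adjusted p = 3.07e-10). E2f7 and E2f6 were lower in rES than in EpiSC, with log2 differences of -1.50 and -1.42. In rES against ESC, 2 of the 18 were higher and 7 lower, against 15.6% of all genes called higher and 17.9% called lower. Foxm1 averaged 83.7 ± 4.19 CPM in rES and 141 ± 3.98 CPM in ESC (-0.75 ± 0.09, adjusted p = 3.46e-06). E2f4 averaged 83.3 ± 4.18 CPM in rES and 177 ± 5.13 CPM in ESC (-1.08 ± 0.06, adjusted p = 4.37e-10).

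Of 24 checkpoint kinases, CDC25 phosphatases and regulators of the anaphase-promoting complex, 19 were lower and 3 higher at D8 than in EpiSC, and 18 were higher and 3 lower in rES than at D8. Of all genes, 34.5% were called lower and 42.4% higher at D8 than in EpiSC, and 32.7% higher and 38.4% lower in rES than at D8. Cdc25c, a phosphatase that activates Cdk1, averaged 8.84 ± 1.26 CPM at D8 and 45.2 ± 3.12 CPM in EpiSC (-2.35 ± 0.11, adjusted p = 1.20e-12). Cdc25b averaged 86.6 ± 7.38 CPM at D3 and 37.7 ± 0.88 CPM in EpiSC (1.20 ± 0.11, adjusted p = 3.36e-08), but 11.1 ± 0.70 CPM at D5. Chek1, the checkpoint kinase of replication stress, averaged 85.7 ± 3.34 CPM in rES and 19.8 ± 4.62 CPM at D8 (2.12 ± 0.13, adjusted p = 5.34e-11).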

How the data were processed

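Total RNA was sequenced after probe-directed RNase H digestion of ribosomal RNA, as paired reads of 150 bases, per the labels' protocols. The submitters' processing notes name bcl2fastq, Trim Galore, HISAT2 and the mm10 build, without versions. No source used here names the counting program or its strand setting. The deposited table holds expected counts by the authors, whole numbers per gene symbol that are not scaled between libraries and whose low values bunch at 4 and 8. The steps from here on were computed from it.

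All 18 libraries entered 1 fit in edgeR 4.0.16 (limma 3.58.1, R 4.3.3) with group means, filterByExpr and TMM factors of 0.945 to 1.05. The quasi-likelihood F test was adjusted by Benjamini-Hochberg over 17545 genes, with a threshold of 0.05. Standard errors are the absolute log2 difference over the square root of F and are approximate. The common biological coefficient of variation was 0.167. Alternatives were relative log expression or total count scaling, no filter, counts divided by 4, 2 groups alone, a replicate block, each library left out and DESeq2 1.42.0. On simulated data for D8 against EpiSC (15459 genes), 67.2%, 97% and 100% of genes changed 1.5-fold, 2-fold and 4-fold were recovered, with 3.3% of calls false. Only 67, 67 and 66 well-counted genes were changed there, up or down and in D8 alone, and all others had the same mean in every group. In the data, 34.5% of genes were called lower and 42.4% higher in this comparison, so the simulated rates may not hold for it.

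Exon lengths and overlaps came from GENCODE vM21 on GRCm38, and promoters from RefSeq on GRCm38.p6. The 40 genes, the other lists and the markers were chosen with earlier results of these data known. In every comparison Mki67, Ccnb1, Plk1, Mcm2, Pcna and Rrm2, the 3 largest called differences of each set and every call against the majority were named, and other members where they show how the sets vary. Of other lists, genes were named among the 4 largest called differences with at least 5 CPM in a group.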

Additional observations from a re-analysis of the deposited data

How the results depend on the processing

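Of the results for single named genes, 91 kept their direction and their side of the threshold in every alternative, 11 changed side in some, and none was called in the opposite direction. The counts of genes lower at D3, D5 and D8 than in EpiSC, and of genes higher in rES than at D8, stayed within 1.5 times in every alternative. Other counts moved further. Against EpiSC, 5 genes were higher in rES, but 8 with RLE scaling, 11 with the 2 groups alone and 9 with DESeq2, and 6 in ESC, but 11, 12 and 11. Of all 17545 genes, 5590 were higher in rES, but 6327 with RLE scaling, 6377 of 15657 with the 2 groups alone and 6383 with DESeq2. In ESC 5472 of all genes were higher, but 6058, 5987 of 15535 and 6143. In rES against ESC, 3 genes were higher and 9 lower, but 7 and 18 with the 2 groups alone, and 1 was higher in each fit with a library left out. Of all genes, 3932 of 15167 were higher and 3916 lower with those 2 groups alone. In D8 against D5, 1 gene was higher, but 0 with the 2 groups alone and 0 to 1 with a library left out. Of all genes, 4134 of 16041 were higher at D8 with D5 and D8 fitted alone. Fitting rES and EpiSC alone moved the median of all genes by 0.12 on the log2 scale, and no scaling alternative moved the median of all genes by over 0.1. The medians of the mitosis and S phase sets moved by over 0.1 with RLE scaling in rES and ESC against EpiSC.

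Replicate numbers did not pair the libraries: over 45 same-number pairs the correlation of deviations from group means ran between -0.061 and 0.053, and 7 of 18 libraries correlated best with their own number. With the replicate number as a block, 39 genes were lower at D8 than in EpiSC, 25 in rES and 24 in ESC. Of all 17545 genes, 5989, 6476 and 6214 were then called lower, in that order. The call of Plk1 in rES against ESC was lost with the block (adjusted p = 0.0560). At 58.4 M counts or more per library, counting error is small for these genes, and 3 libraries a group limit the precision.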

Other observations

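E2f8, an atypical E2F that represses S phase genes and was chosen here after its values were seen, moved against its list of other S phase genes: it averaged 54.5 ± 2.02 CPM in EpiSC, 69.2 ± 1.42 at D3, 100.1 ± 11.4 at D5, 136 ± 2.73 at D8, 27.5 ± 0.79 in rES and 33.3 ± 3.21 in ESC (SD, n = 3 each). It was the 1 gene of that list that was lower in rES than at D8 (log2 difference -2.31 ± 0.08, adjusted p = 5.12e-14 by edgeR). Ung, which removes uracil from DNA, averaged 216 ± 2.58 CPM in rES and 74.6 ± 7.44 CPM in EpiSC (1.53 ± 0.16, adjusted p = 1.06e-07), and Nasp averaged 386 ± 11.3 CPM in rES and 1045 ± 31.2 CPM in EpiSC (-1.44 ± 0.10, adjusted p = 2.95e-10). Ccne2, a cyclin of the G1 to S transition, averaged 10.3 ± 0.82 CPM in EpiSC, 24.0 ± 5.93 at D3, 37.6 ± 1.84 at D5, 9.24 ± 0.38 at D8, 12.01 ± 1.37 in rES and 19.7 ± 1.06 in ESC.

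Cdc45 had the largest SD relative to its mean of the 40 genes in every group except D8, and was chosen here after its values were seen. It stood at 18.6, 20.1 and 11.1 CPM in the D3 libraries, at 22.7, 15.6 and 10.3 CPM in the D5 libraries, and at 23.3, 20.1 and 11.5 CPM in the ESC libraries, against 27.1, 23.2 and 14.0 CPM in the EpiSC libraries. In each of the 6 groups replicate 3 had its lowest level, and the difference was not tested. Of its exon bases, 6.0% lie under Ufd1 on the opposite strand.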
